A study of Mus musculus with 2 samples.

Results

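The Krüppel-like factors examined here were 9 genes of mouse cornea, *Klf2*, *Klf3*, *Klf4*, *Klf5*, *Klf6*, *Klf7*, *Klf9*, *Klf10* and *Klf13*, out of 20198 genes in the deposited single-cell count table. They were chosen by name and read in each deposited cell cluster of each library. One library held cells of unwounded corneas (UW) and the other held cells collected 24 h after an epithelial wound (W). Each library pooled 8 corneas of 4 male mice aged 6 to 8 weeks (strain and genotype not given in the sources used here), so individual mice cannot be told apart and there is 1 sample per condition. In W the central epithelium had been marked with a trephine and scraped off with a rotating burr. Both groups went through the same dissociation, with dispase for 18 h in the cold, trypsin for the epithelial sheet and collagenase for 1 h for the rest.

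Krüppel-like factors are transcription factors that bind GC-rich and CACCC sequences through 3 zinc fingers at the C-terminal end. They differ in their other domains, and with them in the co-activators and co-repressors they recruit. In the ocular surface *Klf4* and *Klf5* are known as regulators of corneal epithelial maturation and barrier genes. *Klf2* is known for quiescence of T cells and of vessel endothelium, *Klf3* as a repressor that recruits CtBP, *Klf6* and *Klf10* as early genes of injury and TGF-beta signalling, *Klf9* as a target of glucocorticoid and thyroid hormone receptors, *Klf7* as a factor of neurons and progenitor cells, and *Klf13* as a regulator of cytokine genes in lymphocytes.

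The table held 16450 UW cells with a median of 22014 UMIs (unique molecular identifiers, each counting 1 captured RNA molecule) and 12417 W cells with a median of 20290 UMIs. The 9 genes together gave 863914 UMIs in UW and 665250 UMIs in W, 0.235% and 0.230% of all UMIs. There were 52 cell barcodes present in both libraries. For each cluster and library, UMIs were summed and scaled to CPM, the UMIs of a gene in 1000000 UMIs of that sum. The 95% intervals given with CPM are exact Poisson intervals and those of log2 ratios are exact conditional binomial intervals. They cover counting error only, and with 1 library per condition no test between UW and W was possible. Because reads come from the 3′ end of each transcript, each gene was compared with itself across clusters and not with other genes.

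Of the 17 deposited clusters, 12 held at least 50 cells in each library. By markers, cluster 3 was basal-like (*Lamb3*, *Lama3*, *Itgb4*), clusters 1 and 4 were suprabasal-like (*Pygl*, *Dapl1*, *Dsg1a*, *Krt16*), clusters 6 and 7 were superficial-like (*Psca*, *Krt78*, *Lce3a*), and cluster 5 was conjunctival-like (*Krt4*, *Krt19*). Cluster 8 was mitotic-like (*Top2a*, *Mki67*) and cluster 11 was S phase-like (*Mcm3*, *Uhrf1*). Cluster 2 was led by *Ly6g6c* and *Spink5*, and cluster 9 by *Wfdc18* and *Dlk2*, and neither was named. Cluster 0 was stroma-like (*Kera*). Cluster 10 was led by *Penk* and *Myoc* and also held corneal endothelial markers, of which *Car3* stood at 678 CPM in UW and 7.93 CPM in W. Clusters 13 to 16 had at least 50 cells in W only. Cluster 13 was led by *Ccl3* and *Stfa2l1* and had all 4 neutrophil markers detected. In W these were *S100a8* (13612 CPM), *S100a9* (19963 CPM), *Csf3r* (409 CPM) and *Cxcr2* (119 CPM). The cluster held 710 cells with a median of only 2509.5 UMIs and is referred to by its number. Clusters 14 and 15 were macrophage-like (*C1qa* and *Lyz2*), and cluster 16 was T cell-like (*Cd3g*). Cluster 17, with 29 cells of W, was left out.

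On mouse build GRCm38 (GENCODE annotation), the 9 genes are protein coding and lie on 9 different chromosomes. *Klf4* lies at chr4:55527143-55532466 on the minus strand, *Klf6* at chr13:5861482-5870394 on the plus strand and *Klf9* at chr19:23141226-23168134 on the plus strand. The stretches before their starts are shown because these 3 genes were distributed differently over the clusters, *Klf4* over the upper epithelium, *Klf6* between epithelial layers and *Klf9* towards the stroma. RefSeq promoter sequences were found for 7 of the 9 genes, without *Klf5* and *Klf10*. Each line gives 240 bases, from 250 to 11 bases before the RefSeq start on build GRCm38.p6, 5′ to 3′ on the strand of the gene. Capitals mark GC boxes (GGGCGG), E-boxes (CACGTG) and CCAAT boxes (CCAAT) on either strand, the only motifs of 8 searched that were found in these genes.
*Klf4*, chr4:55532486-55532725, minus strand: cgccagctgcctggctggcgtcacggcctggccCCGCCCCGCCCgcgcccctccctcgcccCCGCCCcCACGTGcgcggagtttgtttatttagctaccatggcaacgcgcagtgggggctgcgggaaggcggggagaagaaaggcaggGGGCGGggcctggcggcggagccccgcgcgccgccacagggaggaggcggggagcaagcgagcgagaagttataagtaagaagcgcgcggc
*Klf6*, chr13:5861239-5861478, plus strand: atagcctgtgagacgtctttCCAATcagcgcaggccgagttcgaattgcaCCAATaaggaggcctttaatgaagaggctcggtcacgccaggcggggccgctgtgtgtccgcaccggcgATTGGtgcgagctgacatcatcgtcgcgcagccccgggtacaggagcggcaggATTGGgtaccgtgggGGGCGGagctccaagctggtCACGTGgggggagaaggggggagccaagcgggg
*Klf9*, chr19:23140976-23141215, plus strand: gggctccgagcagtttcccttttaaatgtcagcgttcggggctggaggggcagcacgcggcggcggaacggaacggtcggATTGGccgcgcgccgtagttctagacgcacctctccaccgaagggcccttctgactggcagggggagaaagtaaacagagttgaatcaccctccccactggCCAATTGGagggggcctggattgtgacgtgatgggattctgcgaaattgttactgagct

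The *Klf4* window held 4 GC boxes, the first 2 of which overlap, and 1 E-box, and 72.9% of its bases were G or C against a median of 52.1% over 32851 mouse promoters. The *Klf6* window held 1 GC box, 1 E-box and 4 CCAAT boxes, and the *Klf9* window held 3 CCAAT boxes, of which the last 2 overlap, and no GC box. Among all promoter windows of this length, 31.3% held a GC box, 5.69% an E-box and 33.0% a CCAAT box. The other motifs searched were the CACCC box (CCACACCC), the AP-1 site (TGACTCA), the cAMP response element (TGACGTCA), the glucocorticoid response element half-site (AGAACA) and the TATA box (TATAAA). These letters were absent from all 7 windows. They are present in 3.07%, 4.35%, 1.44%, 15.5% and 12.1% of all windows, in that order.

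**Figure D1:**
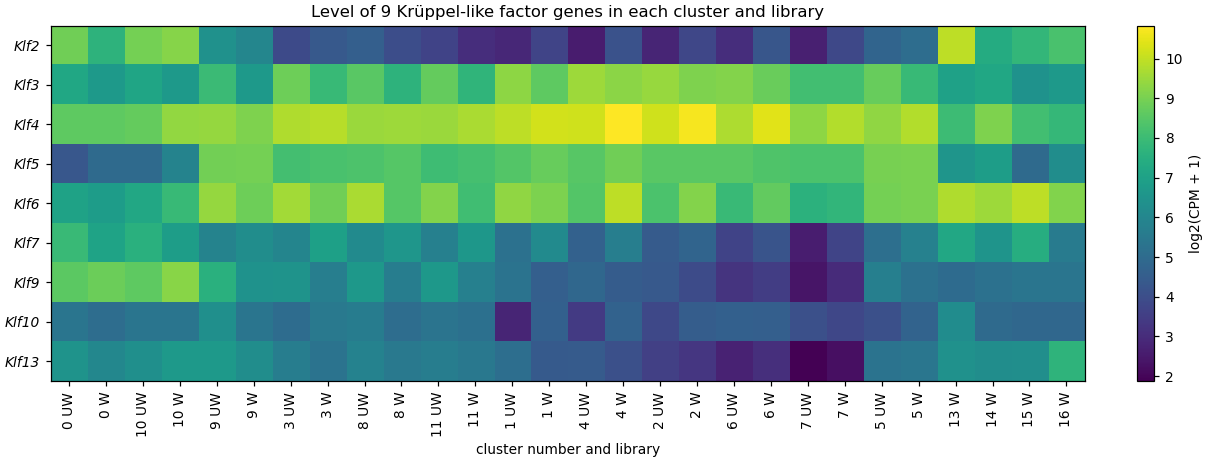
Colour gives log2(CPM + 1) of each of the 9 genes (rows) in each cluster and library with at least 50 cells (columns; cluster number, then UW or W). *Klf2*, *Klf7* and *Klf9* are high in clusters 0 and 10, *Klf3*, *Klf4* and *Klf5* in the epithelial clusters, and *Klf2* and *Klf6* in clusters 13 to 16.

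*Klf3*, *Klf4*, *Klf5* and *Klf6* were higher in each epithelial cluster than in the stroma-like cluster 0 in UW. In W the exception was *Klf3* in cluster 9, at 103.0 CPM against 105.5 CPM in cluster 0, with overlapping intervals. In UW, *Klf4* ranged over the 10 epithelial clusters from 638 CPM (95% interval 629 to 646) in cluster 7 to 1167 CPM (1158 to 1175) in cluster 2, against 389 CPM in cluster 0. *Klf5* ranged from 265 CPM in cluster 11 to 508 CPM (499.6 to 516.6) in cluster 5, the conjunctival-like cluster, against 19.0 CPM in cluster 0. Its levels in clusters 5 and 9, 508 and 485 CPM, had overlapping intervals and stood above those of the other clusters by CPM. This order depended on the scaling. TMM factors correct for a few genes taking up much of the RNA, and a smaller factor raises the level. In UW they were 0.97, 1.35 and 0.38 in clusters 5, 9 and 7. *Klf3* ranged from 252 CPM in cluster 9 to 723 CPM (715 to 731) in cluster 4, against 147 CPM in cluster 0. *Klf6* ranged from 198 CPM in cluster 7 to 829 CPM (813 to 844) in cluster 8, against 128 CPM in cluster 0.

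RNA released from broken cells enters every droplet, so these levels outside the epithelium were read against keratins that stromal cells lack. In UW, *Krt12* and *Krt5* in cluster 0 stood at 5.81% and 6.66% of their CPM over all epithelial cells, and *Klf5* stood at 5.30%. In W the corresponding values were 5.96% and 6.67% for the keratins and 7.59% for *Klf5*. *Klf5* in the stroma-like cluster was thus near background, and its log2 ratio there (0.67) was not read as a difference. In cluster 10 *Klf5* went from 8.45% to 14.5% of the epithelial CPM and *Krt12* from 6.69% to 7.05%. *Klf3*, *Klf4* and *Klf6* in cluster 0 stood at 26.9%, 42.6% and 28.5% of the epithelial CPM in UW, several times above the keratins. *Aldh3a1*, also an abundant corneal epithelial enzyme, stood at 77.5% there and is known in keratocytes too, so it was no measure of released RNA.

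*Klf2*, *Klf7* and *Klf9* had their highest UW levels in clusters 0 and 10. *Klf2* stood at 478 CPM (469.8 to 485.9) in cluster 0 and 500.3 CPM (482 to 519) in cluster 10, whose intervals overlapped, and next at 83.1 CPM in cluster 9. In the other 9 epithelial clusters it lay between 4.96 and 25.9 CPM. *Klf9* stood at 381 and 392 CPM in clusters 0 and 10, again with overlapping intervals, and at 188 CPM in cluster 9. *Klf7* stood at 245 CPM (239 to 251) in cluster 0, 187 CPM in cluster 10 and 70.8 CPM in cluster 8.

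In the epithelium as a whole these 3 genes stood at a higher share of their stromal level than genes known from stroma. The stromal genes *Kera*, *Lum* and *Dcn* stood in UW epithelium at 0.295%, 0.443% and 0.403% of their cluster 0 level, whereas *Klf2*, *Klf7* and *Klf9* stood at 2.31%, 12.3% and 10.5%. In cluster 7 of UW, *Klf9* stood at 1.09% and *Klf2* at 1.12%, closer to the 0.295% to 0.458% of the 3 stromal genes there.

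*Klf10* and *Klf13* were highest in UW in cluster 9. *Klf10* stood at 80.6 CPM (74.4 to 87.3) there, 48.8 CPM in cluster 8 and 5.97 CPM (5.35 to 6.64) in the suprabasal-like cluster 1. *Klf13* stood at 105 CPM (97.6 to 112) in cluster 9, 88.4 CPM in cluster 0 and 2.67 CPM in cluster 7. Cluster 9 of UW was therefore the epithelial cluster with the highest *Klf2*, *Klf9*, *Klf10* and *Klf13* and with the lowest *Klf3*. Its cells had a median of 13944 UMIs.

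In W, *Klf2* was highest in cluster 13 at 979 CPM (934 to 1025), followed by cluster 10 at 593 CPM and the T cell-like cluster 16 at 302 CPM. *Klf13* was highest in cluster 16 at 207 CPM (180.2 to 236.5), and the next level, 103 CPM in cluster 10, had an interval that did not reach it. *Klf6* was highest in the macrophage-like cluster 15 at 980.4 CPM (943 to 1018), level with cluster 4 at 979 CPM within counting error. *Klf10* was highest in cluster 13 at 74.6 CPM. *Klf7* in cluster 15 stood at 175 CPM (159 to 191) and in cluster 13 at 149.8 CPM (133 to 169), with overlapping intervals. So *Klf2*, *Klf7*, *Klf10* and *Klf13* had their highest W CPM in a cluster with fewer than 50 cells in UW, and for *Klf6* such a cluster and the shared cluster 4 were level.

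Epithelial keratin was also counted in these clusters. *Krt12* stood at 29.0% of its epithelial CPM in cluster 13 and 49.0% in cluster 14, against 10.1% in cluster 15 and 17.05% in cluster 16. In clusters 13 and 14, *Klf5* stood at 23.2% and 28.7% and *Klf4* at 25.01% and 52.97%, near or below *Krt12*, and their levels there were not read as expression. Released RNA, doublets and epithelial cells placed in these clusters cannot be told apart here. In cluster 15, *Klf4* (26.7%) and *Klf3* (28.1%) stood above *Krt12* while *Klf5* (7.71%) did not. *Klf6*, at 116% to 204% of the epithelial CPM in clusters 13 to 16, stood above *Krt12* in all 4.

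**Figure D2:**
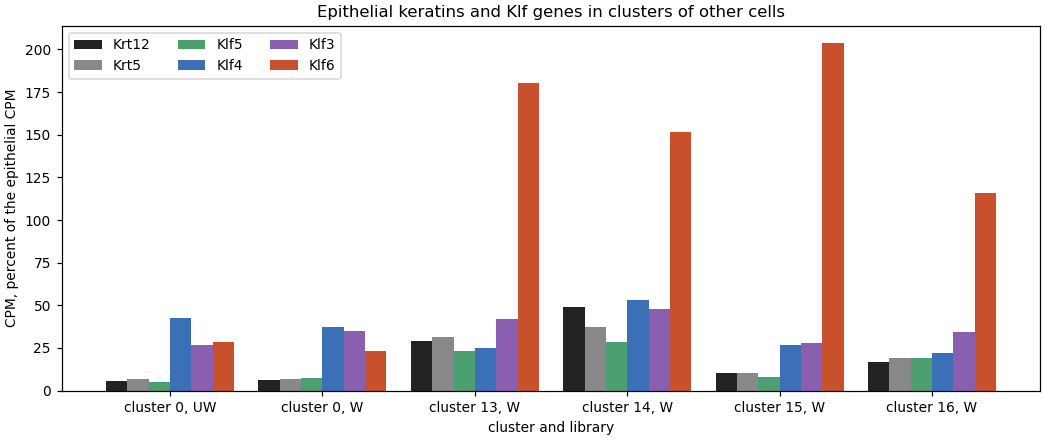
Bars give the CPM of each gene in clusters 0 and 13 to 16 as a percent of its CPM over all epithelial cells of the same library. *Klf5* follows *Krt12* and *Krt5* in each cluster, and *Klf6* exceeds 100% in clusters 13 to 16.

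Shares of cells with at least 1 UMI depended on depth and were compared after thinning each cell to 5000 UMIs. In UW, *Klf2* was seen in 74.4% of cluster 0 cells and 3.04% of cluster 1 cells after thinning, and in 88.1% and 10.7% before it. *Klf9* was seen in 78.8% of cluster 0 cells, 58.8% of cluster 9 cells and 2.28% of cluster 7 cells after thinning. *Klf4* was seen in 86.3% to 99.1% of thinned cells of each epithelial cluster of UW, and *Klf5* in 8.54% of cluster 0 cells, where it was near background. A thinned cell held UMIs of a median of 3 to 5 of the 9 genes in every cluster of UW and W numbered 0 to 11. In these clusters, cells with none of the 9 made up at most 0.938% (cluster 7 of UW).

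**Figure D3:**
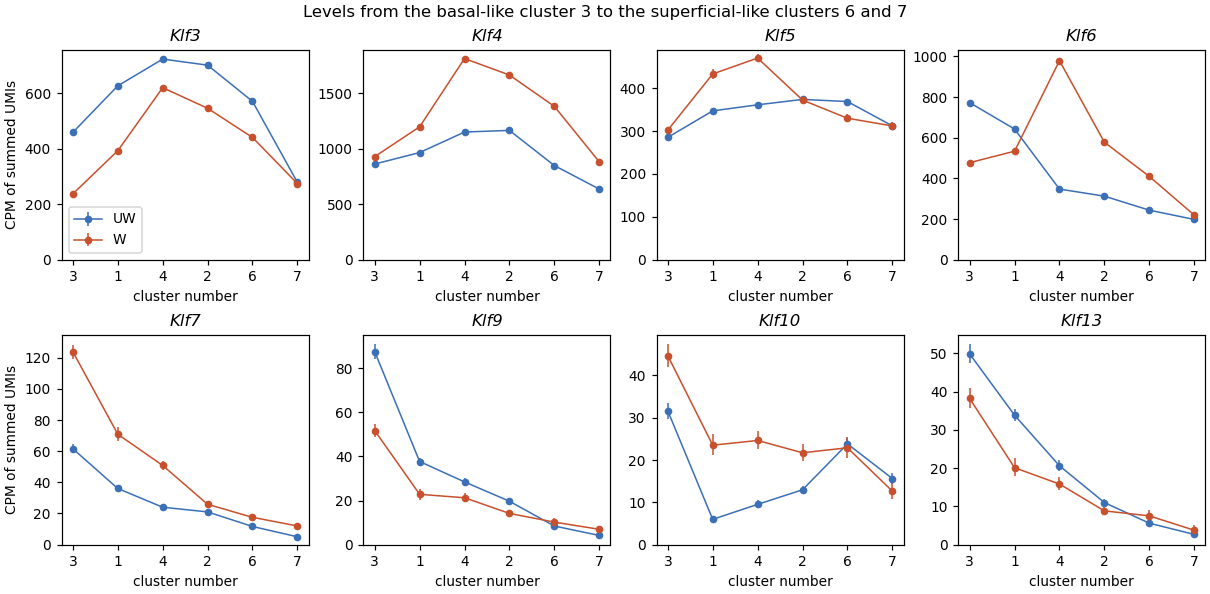
Points give the CPM of summed UMIs in clusters 3, 1, 4, 2, 6 and 7, ordered by markers from basal-like to superficial-like, in UW (blue) and W (red); bars are 95% Poisson intervals and often lie within the point. *Klf7*, *Klf9* and *Klf13* decline from cluster 3 to cluster 7 in both libraries, and the *Klf6* maximum lies in cluster 3 in UW and in cluster 4 in W.

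Along the epithelial layers the genes differed in shape. *Klf7*, *Klf9* and *Klf13* declined from the basal-like cluster 3 to the superficial-like cluster 7. In UW, *Klf9* went from 87.6 to 4.16 CPM, a log2 difference of -4.40, *Klf13* from 49.9 to 2.67 CPM (-4.22) and *Klf7* from 61.5 to 5.01 CPM (-3.62). In W the differences were -2.90, -3.34 and -3.37. A few genes take up much of the RNA of cluster 7, and with TMM factors, which correct for this, the 3 UW differences were -2.84, -2.67 and -2.06 and stayed negative.

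*Klf3* and *Klf4* were arched. In UW, *Klf3* went from 459 CPM in cluster 3 to 723 CPM in cluster 4 and back to 279 CPM in cluster 7. *Klf4* went from 863 CPM in cluster 3 to 1167 CPM in cluster 2 and to 638 CPM in cluster 7. The descending side depended on the scaling: the log2 difference of *Klf4* between clusters 7 and 3 of UW was -0.44 by CPM and 1.12 with TMM factors, and that of *Klf3* was -0.72 and 0.83. *Klf5* was the flattest, between 285 and 374 CPM over these 6 clusters in UW, with a log2 difference between clusters 7 and 3 of 0.13 by CPM and 1.68 with TMM factors.

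*Klf2* and *Klf10* were highest in cluster 3 of these 6 clusters in both libraries by CPM. *Klf10* in UW dipped from 31.6 CPM in cluster 3 to 5.97 CPM in cluster 1, rose to 23.8 CPM in cluster 6 and stood at 15.6 CPM in cluster 7. In W it went from 44.7 CPM in cluster 3 to between 21.7 and 24.6 CPM in clusters 1, 4, 2 and 6 and to 12.6 CPM in cluster 7. *Klf2* stood in UW at 13.6 CPM in cluster 3 and at 4.96 to 7.26 CPM in the other 5. The log2 difference between clusters 7 and 3 of UW changed sign with TMM factors for both, from -1.02 to 0.54 for *Klf10* and from -1.34 to 0.21 for *Klf2*.

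*Klf6* had a different shape in each library. In UW it declined from 773 CPM in cluster 3 through 643, 347, 313 and 244 CPM in clusters 1, 4, 2 and 6 to 198 CPM in cluster 7. In W it went from 477 CPM in cluster 3 to 534 CPM in cluster 1, peaked at 979 CPM in cluster 4 and declined to 219.6 CPM in cluster 7. The log2 difference between clusters 4 and 3 was -1.15 in UW and 1.04 in W, and with TMM factors it was -0.93 and 1.41. The suprabasal-like cluster 4 was thus below the basal-like cluster in UW and above it in W under both scalings. The low end of the decline depended on the scaling, since the log2 difference between clusters 7 and 3 of UW was -1.96 by CPM, -0.41 with TMM factors and -0.01 with size factors, and that of W was -1.12, 0.10 and 0.40.

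The second comparison was W against UW within each of the 12 shared clusters, which gives 108 pairs of gene and cluster. Each pair had at least 142 UMIs. In 10 pairs (9.26%) the gene was at least 2-fold higher in W, where 12.7% of all gene and cluster pairs were, and in 8 pairs (7.41%) it was at least 2-fold lower, where 9.8% of all pairs were. Both shares lay below those over all genes, which took in pairs with as few as 20 UMIs. The 2 sets were thus not matched for counts. By CPM, at least 2-fold differences in both directions, in different clusters, were seen for *Klf2*, *Klf6* and *Klf10*, and for 4.01% of the genes measured in all 12. With TMM or size factors *Klf10* was not 2-fold lower in any cluster. The counting interval lay above 0 in 52 pairs, below 0 in 45 and across 0 in 11. The counts rest on scaling each sum to its depth, since cells of clusters 8, 9 and 11 held more UMIs in W (a median of 35499 against 24704 in cluster 8). With unscaled UMIs per cell, 18 pairs were at least 2-fold higher and 0 were lower.

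**Figure D4:**
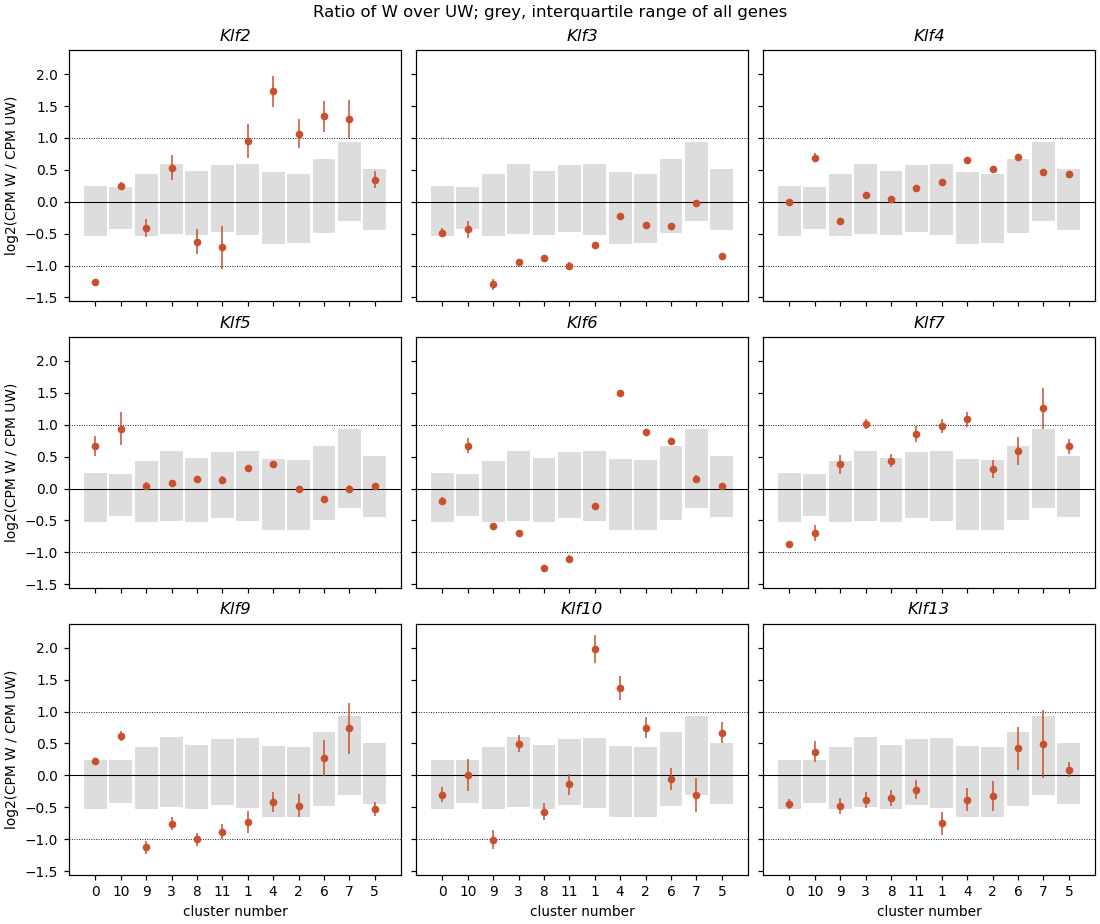
Points give the log2 ratio of CPM, W over UW, of each gene in the 12 shared clusters, with 95% counting intervals; grey bars are the interquartile range of all genes in that cluster and dotted lines mark 2-fold. *Klf3* lies below 0 in every cluster, *Klf7* above 0 in the 10 epithelial clusters, and *Klf2*, *Klf6* and *Klf10* reach 2-fold in both directions.

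*Klf3*, the CtBP-recruiting repressor, was lower in W in 12 of 12 clusters, as were 14.3% of the genes measured in all of them. The median log2 ratio was -0.58. The lowest, in cluster 9, was -1.29 (-1.38 to -1.21), and only cluster 7 had an interval that included 0 (-0.02, -0.08 to 0.03). It went from 252 to 103 CPM in cluster 9, from 422 to 210.3 CPM in cluster 11 and from 459 to 237 CPM in cluster 3. By CPM the difference was smaller in the upper layers, where *Klf3* went from 723 to 620.0 CPM in cluster 4 and from 571 to 441 CPM in cluster 6. This order did not hold as UMIs per cell. There the log2 ratio was -0.40 in cluster 4 and -0.69 in cluster 6, against -0.46 in cluster 9, -0.27 in cluster 11 and -0.47 in cluster 3. In clusters 7 and 0 alone the *Klf3* ratio changed sign under other settings, cluster 7 when cells were thinned and cluster 0 when UMIs per cell were not scaled to depth.

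*Klf4* was higher in W in 10 of 12 clusters, as were 26.6% of genes in at least that many, and reached 2-fold in none. The largest log2 ratios by CPM were 0.70 (0.68 to 0.73) in cluster 6, where it went from 849 to 1384 CPM, 0.69 in cluster 10 and 0.66 in cluster 4, where it went from 1152 to 1815 CPM. In the basal-like cluster 3 the ratio was 0.11 and in the mitotic-like cluster 8 it was 0.04. As UMIs per cell clusters 3 and 8 stood at 0.58 and 0.65, above clusters 6 (0.39) and 4 (0.48) and below cluster 10 (1.07). *Klf4* was lower in cluster 9, from 673 to 543 CPM (-0.31, interval -0.36 to -0.26), but higher there as UMIs per cell (0.52). By CPM the ratio did not follow the UW level. In cluster 7, with the lowest UW CPM of the epithelium (638 CPM), it was 0.47, and in cluster 1 at 967 CPM it was 0.31. This order depended on the scaling. TMM and size factors moved the cluster 7 ratio by -0.40 and -0.45. With TMM factors the UW level of cluster 7 stood above that of cluster 3 (log2 difference 1.12).

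Over the 10 epithelial clusters *Klf5* had by CPM the smallest maximum difference of the 9 genes, in either direction. Its log2 ratios of CPM in the 10 epithelial clusters ran from -0.16 in cluster 6 to 0.38 in cluster 4, and in clusters 2, 7 and 9 the interval included 0. The ranking did not hold as UMIs per cell, where the largest *Klf3* difference was -0.69 in cluster 6 and *Klf5* reached 0.88 in cluster 9. In cluster 5, where its CPM was highest, it stood at 508 CPM in UW and 521 CPM in W. Its epithelial median log2 ratio was 0.06, with 0.37 for *Klf4* and -0.76 for *Klf3*. In cluster 10 it went from 30.3 to 57.8 CPM, a log2 ratio of 0.93 (0.68 to 1.19), the highest of the 9 genes there.

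*Klf6* was higher in W in 6 clusters and lower in 6, and with TMM factors in 5 and 7, cluster 7 having changed sign (-0.25). The level went from 347 to 979 CPM in cluster 4, a log2 ratio of 1.495 (1.47 to 1.53), from 313 to 578 CPM in cluster 2 (0.89) and from 244 to 409.8 CPM in cluster 6 (0.75). It went from 829 to 350.4 CPM in cluster 8, a log2 ratio of -1.24 (-1.28 to -1.21), from 575 to 269 CPM in cluster 11 (-1.10) and from 773 to 477 CPM in cluster 3 (-0.69). The suprabasal-like and superficial-like clusters were thus higher, and the basal-like and cycling clusters lower, with cluster 1 (-0.27) on the lower side. Over all epithelial cells together these differences offset each other, with 450.4 CPM in UW and 481 CPM in W.

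*Klf10*, an early TGF-beta gene, was also split. In the suprabasal-like cluster 1 it went from 5.97 to 23.5 CPM, a 3.94-fold difference with a log2 interval of 1.76 to 2.20, and this was the largest ratio of the 108. In cluster 4 it went from 9.52 to 24.6 CPM (1.37). In cluster 9, where UW was highest, it went from 80.6 to 40.1 CPM, a log2 ratio of -1.01 (-1.16 to -0.86). Across the 10 epithelial clusters *Klf10* spanned 5.97 to 80.6 CPM in UW and 12.6 to 44.7 CPM in W.

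*Klf2* was lower in the stroma-like cluster 0, from 478 to 200.03 CPM, a log2 ratio of -1.26 (-1.30 to -1.21), and not in cluster 10, where it went from 500.3 to 593 CPM (0.24). In the epithelium it was at least 2-fold higher in clusters 2, 4, 6 and 7, but at levels of 4.96 to 7.26 CPM in UW and 12.7 to 18.3 CPM in W. The highest of these ratios was 1.73 (1.48 to 1.98) in cluster 4, from 214 and 372 UMIs. Under the other scalings and cell filters the lowest log2 ratios were 0.76 in cluster 2 and 0.84 in cluster 7. In clusters 4 and 6 *Klf2* stayed past 2-fold. It was lower in clusters 8 (-0.63), 9 (-0.41) and 11 (-0.71), the latter 2 of which were higher as UMIs per cell (0.42 and 0.03).

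Neutrophil markers were also higher in the shared clusters of W. Of the 4 listed, *S100a8* and *S100a9* had enough counts in 12 clusters and *Csf3r* in 2, and all 26 of these pairs were at least 2-fold higher in W. In clusters 1, 2, 4, 6 and 7 of W, *Klf2* stood at 1.25% to 1.87% of its cluster 13 level, *S100a8* at 0.476% to 1.11%, *S100a9* at 2.66% to 4.85% and *Csf3r* at 0.0535% to 0.225%. These percentages differed between the 3 markers, and *S100a9* already stood at 151 CPM in cluster 7 of UW, where cluster 13 had 1 cell. The part of released RNA in the low *Klf2* values was not tested. In cluster 9 of W, *Klf2* stood at 6.38% of the cluster 13 level, above *S100a8* (1.31%), *S100a9* (0.866%) and *Csf3r* (0.108%).

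*Klf7* was higher in W in all 10 epithelial clusters and lower in clusters 0 and 10, a pattern held by 2.5% of genes. By CPM it was at least 2-fold higher in cluster 3, from 61.5 to 124 CPM (log2 ratio 1.01, interval 0.93 to 1.09), in cluster 4, from 24.0 to 50.8 CPM, and in cluster 7, from 5.01 to 11.97 CPM. Under the other scalings and cell filters the lowest log2 ratios there were 0.95, 0.90 and 0.80, each short of 2-fold. In cluster 0 *Klf7* went from 245 to 134 CPM (-0.87) and in cluster 10 from 187 to 115 CPM (-0.70). The distance between cluster 0 and the basal-like cluster 3 narrowed from 245 against 61.5 CPM in UW to 134 against 124 CPM in W.

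*Klf9* was opposite to this in part. It was lower in W in 8 of the 10 epithelial clusters and higher in clusters 0 and 10, a pattern held by 3.49% of genes. In cluster 9 it went from 188 to 86.0 CPM (-1.13, interval -1.23 to -1.03), in cluster 8 from 99.7 to 49.7 CPM (-1.01) and in cluster 3 from 87.6 to 51.7 CPM (-0.76). In clusters 6 and 7 it was at most 10.2 CPM in either library. In cluster 10 it went from 392 to 601 CPM (0.62) and in cluster 0 from 381 to 447 CPM (0.23). *Car3* and *Slc4a11* were lower in cluster 10 of W, and the part of a changed cell mix in the cluster 10 values was not tested.

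*Klf13* was lower in 8 of 12 clusters, as were 44.1% of genes in at least that many. It reached 2-fold in none, and as UMIs per cell it was higher in 5 of those 8 (clusters 0, 3, 8, 9 and 11). Its lowest log2 ratio was -0.75 (-0.94 to -0.57) in cluster 1, from 33.8 to 20.1 CPM. In cluster 9 it went from 105 to 74.96 CPM (-0.48) and in cluster 0 from 88.4 to 64.6 CPM (-0.45). In cluster 10 it was higher in W, from 80.2 to 103 CPM (0.37).

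**Figure D5:**
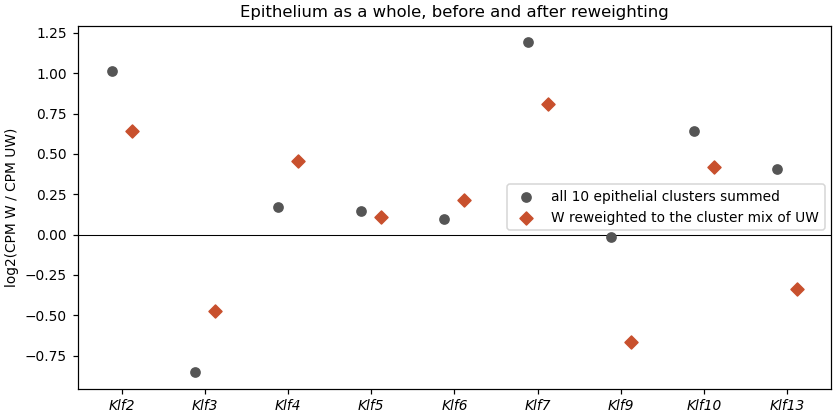
Points give the log2 ratio of CPM, W over UW, in all 10 epithelial clusters summed (grey circles) and after weighting the W level of each cluster by its share of UW epithelial UMIs (red diamonds). *Klf13* changes from 0.40 to -0.33 and *Klf9* from -0.02 to -0.66.

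The epithelium as a whole gave other values than its clusters, since the libraries held different cell mixes. Mitotic-like cluster 8 made up 3.96% of UW epithelial cells and 15.7% of W epithelial cells, cluster 9 made up 3.86% and 11.2%, and cluster 1 made up 18.2% and 6.95%. Summed over all epithelial cells, *Klf13* was higher in W (25.9 against 34.3 CPM, log2 ratio 0.40, interval 0.36 to 0.45). With the W clusters weighted as in UW, it was lower (20.6 CPM, -0.33). *Klf9* went from -0.02 to -0.66 under the same weighting, *Klf4* from 0.17 to 0.46 and *Klf3* from -0.85 to -0.48. *Klf7* (1.19 and 0.81) and *Klf2* (1.02 and 0.64) kept their direction, as did *Klf5*, *Klf6* and *Klf10*.

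Corneal genes that are known to depend on *Klf4* or *Klf5* were counted beside these genes. Of the 84 pairs of the 7 listed genes and 12 clusters, 0 were at least 2-fold higher and 44 (52.4%) at least 2-fold lower in W. Over all genes 12.7% of pairs were at least 2-fold higher and 9.8% lower. The desmosomal cadherin *Dsg1a* was at least 2-fold lower in 12 of 12 clusters, with log2 ratios from -3.95 to -1.87, and the desmosome protein *Dsp* in 8. The corneal keratin *Krt12* was lower in 10 clusters and higher in clusters 6 and 7 (0.25 and 0.45). In the upper epithelial clusters 2, 4, 6 and 7, where *Klf4* was higher in W, the list medians were -0.35, -0.66, -0.37 and -0.26, with medians over all genes of -0.14, -0.12, 0.04 and 0.26. The part of released epithelial RNA in the values of this list in clusters 0 and 10 was not tested.

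The TGF-beta early genes, a list of 6 beside *Klf10*, had 22 of 72 pairs (30.6%) at least 2-fold higher and 3 (4.17%) lower, against 12.7% and 9.8% of all pairs. *Pmepa1*, a TGF-beta target that limits the pathway, was higher in 12 of 12 clusters and highest in cluster 4 (3.19), and the inhibitory *Smad7* was higher in 11. The list median was 1.00 in cluster 1 and 1.15 in cluster 4, the 2 clusters in which *Klf10* was at least 2-fold higher, and -0.51 in cluster 9, where *Klf10* was at least 2-fold lower. In the basal-like cluster 3 the list median was 1.13 and *Klf10* stood at 0.50. In clusters 6, 7 and 11 the list median was 0.87, 0.68 and 0.56, whereas the log2 ratio of *Klf10* was -0.06, -0.31 and -0.14.

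Klf genes are known among the early genes that tissue dissociation itself induces, and the study removed cells with a dissociation signature. Of 189 pairs of 16 immediate early genes, 15 (7.94%) were at least 2-fold higher and 47 (24.9%) at least 2-fold lower in W, against 12.7% and 9.8% of all pairs. The list median was lowest in cluster 0 (-1.13), where *Klf2* was lowest in ratio and *Fos* went from 3377 to 597 CPM. It was -1.07 in cluster 9, -0.99 in cluster 11 and -0.80 in cluster 8, the clusters where *Klf6* or *Klf10* was at least 2-fold lower, and highest in cluster 4 (0.29), where both were at least 2-fold higher. Other clusters differed from this: the median was -0.39 in cluster 1, where *Klf10* had its highest ratio, and -0.10, -0.42 and -0.28 in clusters 2, 6 and 7, where *Klf2* was at least 2-fold higher. Within cluster 4, *Nr4a1* had a log2 ratio of 2.03 while *Egr1* had -1.73. Of 72 pairs of 6 heat shock genes, 1 (1.39%) was at least 2-fold higher and 16 (22.2%) lower. How much of the *Klf2*, *Klf6* and *Klf10* values came with handling was not tested.

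Glucocorticoid-responsive genes, read for *Klf9*, had 17 of 83 pairs (20.5%) at least 2-fold higher and 17 lower, against 12.7% and 9.8% of all pairs. *Zbtb16* was at least 2-fold lower in 11 of 11 clusters, down to -5.47 in cluster 3, and *Tsc22d3* was lower in 11 of 12. *Ddit4*, in contrast, was higher in 11 of 12. Of the other listed genes, *Sgk1* was lower in 2 of 12 clusters, *Fkbp5* and *Mt2* each in 4 and *Mt1* in 6. In cluster 0, where *Klf9* was 0.23, *Mt2* stood at 2.51 and *Fkbp5* at 1.64. Clock genes, read because *Klf9* and *Klf10* are known to cycle over the day, had 6 of 168 pairs (3.57%) at least 2-fold higher and 64 (38.1%) lower. *Hlf*, *Tef* and *Per3* were lower in 12 of 12 clusters and *Arntl* was higher in 12 of 12, or in all but 1 with size factors. The time of day of collection is not given in the sources used here, and its part in these values was not tested.

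Of 5 genes known as *Klf2* targets in lymphocytes and vessels, 30 pairs had enough counts, 8 (26.7%) at least 2-fold higher and 8 lower, against 12.7% and 9.8% of all pairs. In cluster 0, where *Klf2* was lower, the endothelial nitric oxide synthase gene *Nos3* was -1.24 and the thrombomodulin gene *Thbd* was 1.43. Vessel endothelial markers had 8 of 22 pairs higher and 4 lower, with *Cdh5* counted in 1 cluster only. Macrophage markers had 20 of 36 pairs at least 2-fold higher and 3 lower, and *Cd3g* of the T cell markers had 3 of 3 higher. Epithelial markers had 0 of 36 pairs higher and 12 lower, and stromal markers 3 and 4 of 36.

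Among 17 other Klf and Sp genes, 13 were in the table and 10 had enough counts in at least 1 cluster. Of their 92 pairs, 3 (3.26%) were at least 2-fold higher and 12 (13.04%) at least 2-fold lower in W, against 12.7% and 9.8% of all pairs. *Sp1* and *Sp3*, widely expressed factors that bind the same GC boxes, were lower in 12 of 12 clusters, with log2 ratios of -0.97 to -0.31 and -0.82 to -0.12. *Sp6*, an epithelial factor, was at least 2-fold lower in 5 of 11 clusters and *Sp4* in 6 of 11. *Klf11*, a close relative of *Klf10*, reached 2-fold in none and was lower in 9 of 12. The 3 higher pairs were *Sp5* in clusters 0 and 10, with log2 ratios of 2.37 and 3.01, and *Klf15* in cluster 0 (1.44). All of them stood at 9.86 CPM or less.

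Over the 28 cluster and library sums with at least 50 cells, the genes most like each of the 9 in log2(CPM + 1) were found among 11716 genes. Pearson r was 0.975 between *Klf5* and *Cdcp1*, followed by *Ehf*, an epithelial Ets factor (0.968), and the receptor gene *Erbb3* (0.957). It was 0.972 between *Klf3* and *Zdhhc5* and 0.974 between *Klf9* and *Kdelc2*, with *Nfix* next at 0.969. *Klf13* was most like *Hnrnpll* (0.967), a splicing factor of lymphocytes, *Klf7* most like *Ndufa7* (0.952), *Klf2* most like *Wipf1* (0.948) and *Klf4* most like *Cltb* (0.932). *Klf6* (0.846 with *Map3k11*) and *Klf10* (0.839 with *Rragd*, 0.813 with the early gene *Nr4a1*) had no match as near. Within the 9, the highest r were 0.826 between *Klf7* and *Klf13* and 0.816 between *Klf3* and *Klf4*, and the lowest was -0.822 between *Klf2* and *Klf3*. These sums share 2 libraries and the contrast between epithelial and other cells, so r is a description and has no p.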

How the data were processed

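Cells of 1 UW and 1 W library were read from 1 deposited table of UMI counts with 28867 cells in rows and 20198 genes in columns. The authors made these counts with Cell Ranger 3.1.0 and Seurat, kept cells by genes detected and mitochondrial share, removed called doublets and cells with a dissociation signature, and deposited cluster numbers with the counts. The methods name build mm10 and the labels mm9, and no coordinate was used with the counts. The labels and the methods name different versions of the library kit. The files hold fewer cells than the study's text states for each library. Total UMIs were 367166822 in UW and 289586482 in W.

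Counts were summed per cluster and library and divided by the total to give CPM, for clusters with at least 50 cells in each library and genes with at least 20 UMIs in the 2 sums. Poisson, Clopper-Pearson and conditional binomial intervals at 95% (scipy 1.17.1) cover counting error only. A difference was counted past 2-fold, with no test, and levels of a gene were set beside those of all genes. With 1 library per condition, a count model across samples could not be fitted, and the smallest level that a count of 0 allows was taken as 3 UMIs. The 2-fold rule was tested on simulated sums. The 9 genes, the gene lists and the markers were chosen with earlier results of these data known. Named were the 9 genes, the 3 genes most like each across sums, at most 3 highest and 3 lowest genes of each list in a cluster, and the other Klf and Sp genes. Marker lists came from textbook knowledge and the study's own markers. Alternatives were TMM factors (edgeR 4.0.16), median-of-ratios size factors (DESeq2 1.42.0), unscaled UMIs per cell, means of the CPM of single cells, a stricter cell filter, thinning, leaving out called doublets or shared barcodes, other count minimums and a 1.5-fold limit. Doublets were those the deposited columns call, 305 cells in UW and 164 in W. Cells kept by thinning had at least 5000 UMIs, or 2000 in clusters 13 to 16, and 51 of 2369 cluster 0 cells of UW, for example, were left out there.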

Additional observations from a re-analysis of the deposited data

Results flagged for a closer look

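By CPM, 3 of the 9 genes had ratios of W over UW of at least 2-fold in opposite directions in different clusters. This pattern was held by 4.01% of the genes measured in all 12 clusters. *Klf2* had a log2 ratio of 1.73 in the suprabasal-like cluster 4 and -1.26 in the stroma-like cluster 0. *Klf6* had 1.495 in cluster 4 and -1.24 in the mitotic-like cluster 8. *Klf10* had 1.98 in the suprabasal-like cluster 1 and -1.01 in cluster 9. The interval of the latter (-1.16 to -0.86) spanned 2-fold. TMM and size factors moved the ratios of cluster 9 by 0.10 and 0.07, which left *Klf10* short of 2-fold there. The differences between clusters were not tested, since each condition had 1 library. As unscaled UMIs per cell, the negative ratios were smaller, at -0.60, -0.63 and -0.18, and the positive ones stayed past 2-fold.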

How the results depend on the processing

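Under TMM factors, size factors, the stricter cell filter, count minimums of 1 and 100, and leaving out called doublets or shared barcodes, the pairs at least 2-fold higher (7 to 10) and lower (6 to 8) stayed within 1.5 times the 10 and 8 of the report. As unscaled UMIs per cell there were 18 and 0, and the median log2 ratio over the 108 pairs was 0.37 against 0.04. The pairs at least 2-fold lower were 5 with the mean CPM of single cells and 4 after thinning. With a 1.5-fold limit there were 27 higher and 22 lower. Of the 18 pairs past 2-fold, 13 stayed past it with TMM factors, 13 with size factors and 8 as UMIs per cell, and none changed sign under any of the 8 other scalings and cell filters. The cluster with the highest level was shared with CPM for 9 of 18 gene and library pairs with TMM factors, 10 with size factors (both over clusters 0 to 11 only) and 9 as UMIs per cell. TMM and size factors moved all log2 ratios of a cluster together, by -0.40 and -0.45 in cluster 7 and by -0.13 to 0.19 in the others. Over the 108 pairs, 3 changed sign with TMM factors and 17 as UMIs per cell. No paired analysis was possible because each group has 1 library. Counts were ample, and the limits include the single library per condition and the dependence on the scaling.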
